A study of Mus musculus with 2 samples.

Results

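The metzincin metalloproteinases and their inhibitors were taken from mouse arrays of cultured hepatoblasts by the array's own gene names: the matrix metalloproteinases (Mmp), the ADAM proteases (a disintegrin and metalloproteinase), the ADAMTS proteases (with thrombospondin motifs), the ADAMTS-like proteins (Adamtsl) and the tissue inhibitors of metalloproteinases (Timp). This gave 79 genes of 20053 named genes, read by 136 of 41158 gene probes. Expandable hepatoblasts (eHBs), cultured liver progenitors, were measured at passage 20 and at passage 5, both of strain C57BL/6, with 1 array each. Both cultures were kept in the same defined medium, with 10 ng/ml EGF, 3 µM CHIR99021 (an inhibitor of the kinase GSK3), 2 µM E-616452 (which blocks the type I receptor of TGF-beta), 5 µM LPA (lysophosphatidic acid) and 0.5 µM S1P (sphingosine 1-phosphate). The base of that medium held insulin, transferrin, selenite, albumin at 50 µg/ml, nicotinamide at 5 mM and a phosphorylated ascorbic acid at 30 µg/ml. The labels give the coating as Matrigel or laminin without saying which array's cells grew on which, and they give no age or sex of the donor animals. Per the labels the 2 passages came from independent experiments, so passage and experiment cannot be told apart and no difference below has a replicate check or a p-value.

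MMPs cut collagens, laminins and other matrix proteins, and most are secreted as inactive precursors, while the membrane-type enzymes stay on the cell surface. ADAMs with an active site release the outer parts of membrane proteins, among them EGF receptor ligands and Notch, and ADAMTS enzymes cut proteoglycans or trim procollagens. TIMPs block the active site of these enzymes, and in the liver the balance between proteases and TIMPs is known from scar formation and its resolution, where stellate cells and macrophages are known sources of both.

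A gene's level is given as the log2 signal of its brightest probe minus the 75th percentile of that array, so it is comparable between the arrays for one gene but not between genes. A difference is passage 20 minus passage 5 on that log2 scale, and a gene was counted as different at 2-fold. Where only 1 array measured a gene, the other array's place was taken by the gene's own dim value there or by that array's lowest level above background, whichever was higher. The result is a bound under this rule, written as "at least". It is not a strict limit, since some probes brighter than that lowest level were not called above background. Examples at passage 20 are probes of Adamts18 (-2.93) and Adam25 (-3.09). Probes printed 9 or 10 times and above background on both arrays (108 probes) had a median SD of 0.039 log2 between spots of the difference, and 95% of the spots lay within 0.15 of their probe's mean. This is error within the arrays and leaves out variation between cultures.

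On the passage 20 array 46.1% of the gene probes were well above background, and on the passage 5 array 45.5%. Of 10 hepatoblast markers 8 were measured, with a median difference of -0.36 log2. Afp was at 2.64 at passage 20 and 2.55 at passage 5, while Alb and Dlk1 were above background on neither array. Krt19, Sox9, Hnf4a and Foxa2 differed by -0.52, -0.51, -0.21 and -0.11 by the brightest probe, with another Hnf4a probe at 0.52. Spp1 was 6.83-fold higher at passage 20, Epcam 2.24-fold lower and Gpc3 at least 9.49-fold lower. The arrays differed in sex-linked transcripts: Xist was at 5.06 at passage 20 and -0.13 at passage 5, and the Y-linked Ddx3y was not well above background at passage 20 and at 1.25 at passage 5. In every difference below, passage therefore cannot be told apart from the donor or sex of the cells. Markers of other cell types also differed. Of 5 mesothelial markers 3 were at least 2-fold lower at passage 20 (Upk3b, Igfbp5 and Wt1, each above background at passage 5 only), and of 10 stellate cell and fibroblast markers Dcn was at least 15.9-fold lower, Acta2 differed by -0.10 by its brightest probe and -3.11 by another, and Col1a1, Col1a2, Col3a1, Pdgfra, Pdgfrb, Des, Lum and Postn were above background on neither array. Summed signals are given before scaling, so they also carry the arrays' unlike 75th percentiles (853 at passage 20, 1085 at passage 5). The sum of the mesothelial list was 188400 at passage 20 and 173073 at passage 5, nearly all of it from the bright marker Msln. That of the stellate and fibroblast list was 21764 at passage 20 and 31451 at passage 5. Of this, Acta2 made 21482 at passage 20 and 29241 at passage 5. Of 5 macrophage and leukocyte markers 3 were measured, with Cd14 2.67-fold higher at passage 20, and of 5 endothelial markers 1 was, Egfl7, 3.25-fold lower. Ptprc, Adgre1, Pecam1, Cdh5, Kdr and Tek were above background on neither array.

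Most genes of the families could not be measured in these cells. Of the 79 genes, 26 (32.9%) had a level above background on 1 or both arrays, against 58.8% of all named genes: 20 on both arrays, 3 at passage 20 only and 3 at passage 5 only. The measured genes were 8 of 21 MMPs, 7 of 31 ADAMs, 6 of 18 ADAMTS genes, 2 of 5 ADAMTS-like genes and 3 of 4 TIMPs. Of the 136 probes, 104 were above background on neither array, and 60 of these stood at the scanner software's surrogate value on both, where the scaled difference had a median of 0.16 log2; no difference is given for such genes.

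**Figure D1:**
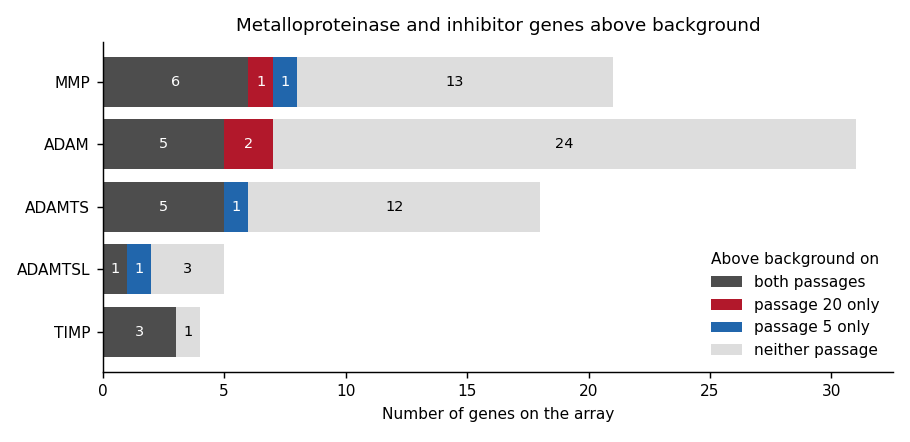
Number of genes of each family on the array, divided by where the brightest probe was well above background (both passages, passage 20 only, passage 5 only, neither). Among the MMPs 13 of 21 and among the ADAMs 24 of 31 genes were above background on neither array, while 3 of 4 TIMPs were measured on both.

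The promoters of the clustered MMP genes differ in letters from those of the other MMP genes. Whether these letters have a part in any difference between the passages was not tested. RefSeq windows of 300 bases (250 before to 50 after the annotated start, build GRCm38.p6) were at hand for 48 of the 79 genes, in 53 windows. They were searched on both strands for 5 motifs. TGANTCA is the AP-1 site, bound by Fos and Jun proteins and counted once where both strands match. TATAAA is the TATA box and GGGCGG the GC box, bound by Sp1. GGAATG (a TEAD site) and CTTTGAT (a TCF/LEF site) were searched too. Of the 53 windows 4 (7.55%) held GGAATG, beside 14.7% of all mouse windows, and 2 (3.77%) held CTTTGAT, beside 3.73%. In the files' probe positions (mm9), 8 MMP genes lie together on chromosome 9 between 7282762 and 7697700: Mmp13, Mmp12, Mmp3, Mmp1a, Mmp10, Mmp8, Mmp20 and Mmp7. Of these 8 genes 7 had an AP-1 match (all but Mmp8), 8 had a TATA match and 0 had a GC box. The TATA matches were counted anywhere in the window. They begin 58 bases before the start in Mmp20, 29 in Mmp10, 28 in Mmp1a, 16 in Mmp13 and 7 in Mmp3. Mmp7 has matches 123 and 26 bases before it. In Mmp12 the match begins 4 bases after the start, and in Mmp8 it is on the opposite strand, 3 bases before the start. Of the other 8 MMP genes with a window, 0 had an AP-1 match. Over all 32851 mouse windows, 7.81% held an AP-1 match, 13.6% a TATA match and 35.7% a GC box. The 250 bases before the start are shown for Mmp13 and Mmp10, the cluster's measured genes, and for Mmp14, the MMP with the largest excess at passage 20, with AP-1 and TATA matches (Mmp13 and Mmp10) and GC boxes (Mmp14) in capitals. They are chr9:7272264-7272513, chr9:7502092-7502341 and chr14:54431348-54431597, all on the plus strand.
Mmp13: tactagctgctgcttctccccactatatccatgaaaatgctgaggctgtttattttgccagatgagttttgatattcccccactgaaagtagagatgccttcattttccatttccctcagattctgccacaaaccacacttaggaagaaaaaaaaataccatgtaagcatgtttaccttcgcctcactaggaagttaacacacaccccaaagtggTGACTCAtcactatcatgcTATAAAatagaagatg
Mmp10: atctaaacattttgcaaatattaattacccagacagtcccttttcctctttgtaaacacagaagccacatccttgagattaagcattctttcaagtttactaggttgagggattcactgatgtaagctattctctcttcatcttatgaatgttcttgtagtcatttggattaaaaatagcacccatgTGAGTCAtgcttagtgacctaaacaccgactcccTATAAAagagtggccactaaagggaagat
Mmp14: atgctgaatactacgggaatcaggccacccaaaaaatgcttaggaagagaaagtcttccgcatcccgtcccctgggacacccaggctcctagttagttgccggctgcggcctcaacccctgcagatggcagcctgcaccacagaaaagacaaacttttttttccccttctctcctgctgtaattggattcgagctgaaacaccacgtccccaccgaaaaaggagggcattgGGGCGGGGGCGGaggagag
The AP-1 match begins 35 bases before the annotated start in Mmp13 and 63 bases before it in Mmp10, and in Mmp14 the GC boxes begin 19 and 13 bases before it. Of the 20 windows of genes measured on at least 1 array, 17 (85.0%) held a GC box and 2 (10.0%) an AP-1 match, those of Mmp13 and Mmp10. Of the 33 windows of genes measured on neither array, 10 (30.3%) held a GC box and 10 an AP-1 match. All 13 windows of ADAMTS and ADAMTS-like genes lacked an AP-1 match and 12 of them held a GC box. Of the 17 windows of ADAM genes 5 (29.4%) held an AP-1 match and 5 a GC box, so AP-1 matches were not particular to the clustered MMP genes. The matches are a description of these letters and not of a factor's binding.

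Between the passages, 2 of the 26 measured genes were higher at passage 20 by 2-fold or more, and 4 were lower by as much. Of all 11797 named genes measured the same way, 3.26% were higher and 5.74% lower, together 9.00%, against 6 of 26 (23.1%) here. The split of all genes, 385 higher and 677 lower, moved with the scaling, to 193 and 1127 with median centring, 224 and 985 with spike-in scaling, and 267 and 843 with loess. Median centring moved the median of all genes to -0.24 and spike-in scaling to -0.16. Mmp14 and Adam4 were the higher genes, and Mmp13, Adam8, Adamts7 and Adamts9 the lower ones. The median difference of the 26 genes was -0.12 log2, and that of all measured genes 0.07. Genes above background on both arrays numbered 20, with 9 differences above 0 and 11 below it, and 6 of the 20 were smaller than the 0.15 log2 given above for repeat spots; 4 of the 20 passed 2-fold, 1 higher and 3 lower, where of all 10748 such genes 6.46% did (2.47% higher and 3.98% lower). In cultures measured in bulk, fewer cells of a type and less RNA per cell cannot be told apart.

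**Figure D2:**
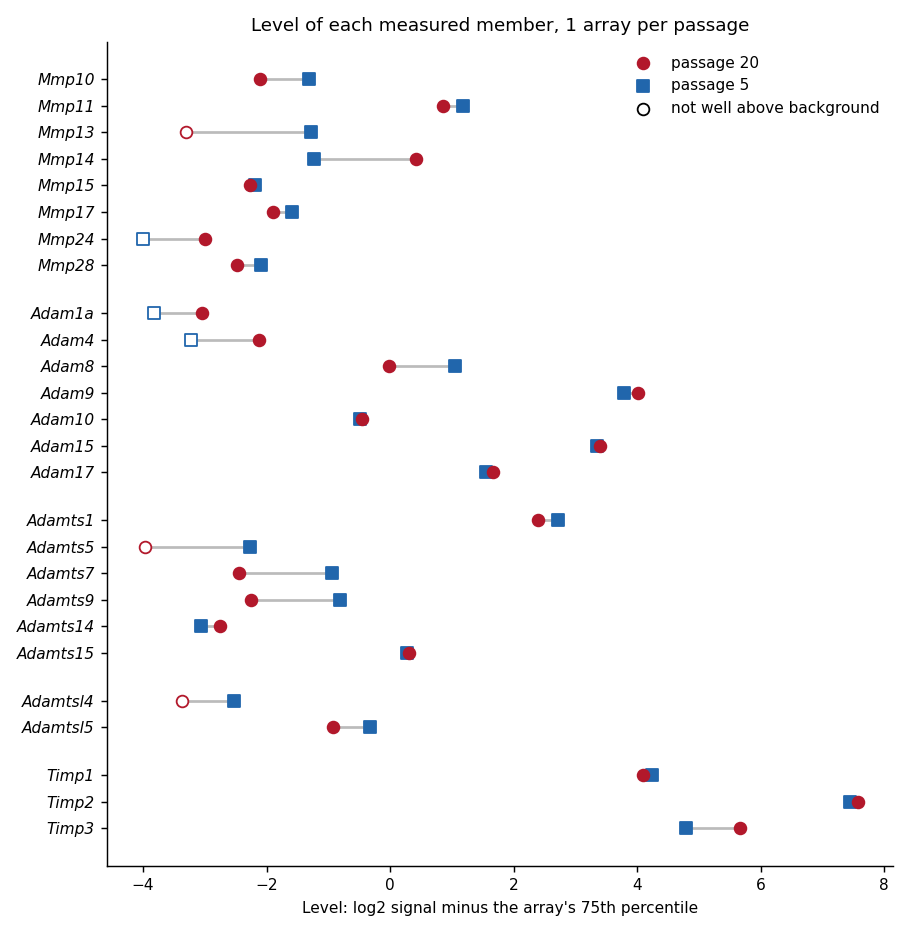
Level of the 26 measured genes at passage 20 (red circles) and passage 5 (blue squares), as log2 signal of the brightest probe minus the array's 75th percentile; 1 array per passage, open symbols where the probe was not well above background. Mmp14 (0.42 at passage 20, -1.24 at passage 5) and Timp3 (5.67 at passage 20, 4.79 at passage 5) lie to the right at passage 20, while Adamts7, Adamts9 and Mmp13 lie to the left.

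Among the MMPs the membrane-type enzyme Mmp14 was higher and the secreted collagenase Mmp13 was lower. Mmp14 encodes MT1-MMP, which cuts fibrillar collagen at the cell surface and activates the precursor of MMP2 in a complex with TIMP2. Its level was 0.42 at passage 20 and -1.24 at passage 5, a 3.16-fold excess (1.66 log2), well beyond the spread of repeat spots. This excess stayed between 1.31 and 1.67 log2 under all 11 other settings of the processing. Mmp13 (collagenase 3) was not well above background at passage 20, at -3.31, and was at -1.29 at passage 5, so that it was at least 3.69-fold lower. Of the chromosome 9 cluster Mmp10 was measured too. Mmp10 (stromelysin 2) was at -2.11 at passage 20 and -1.32 at passage 5, a difference of -0.79 that did not reach 2-fold. The other 6 cluster genes, Mmp12, Mmp3, Mmp1a, Mmp8, Mmp20 and Mmp7, were below the limit of both arrays.

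None of the remaining measured MMPs passed 2-fold by its brightest probe. Mmp11 (stromelysin 3) was at 0.85 at passage 20 and 1.18 at passage 5. The membrane-type genes Mmp15 and Mmp17 were at -2.27 and -1.90 at passage 20, and at -2.18 and -1.59 at passage 5, with differences of -0.09 and -0.31. Both lay inside 2-fold, unlike the membrane-type gene Mmp14. With the mean over its probes Mmp17 was at -1.13. That mean takes in a second Mmp17 probe, above background on neither array and at the surrogate value at passage 20. Mmp24, a membrane-type gene known from neurons, was at -2.99 at passage 20 and not well above background at passage 5, at -4.00, a bound of 1.26-fold that leaves the size of the difference unknown (1.01 log2 without the filter on dim probes). Mmp28 (epilysin) was at -2.48 at passage 20 and -2.09 at passage 5. The gelatinase gene Mmp2, whose product MT1-MMP activates, was below the limit of both arrays, as were Mmp16, Mmp19, Mmp21, Mmp23 and Mmp25. The other gelatinase gene, Mmp9, shows why repeat spots matter: 1 of its probes was printed 10 times, and 9 of these spots had signals of 20.0 to 24.6 at passage 20 and 22.6 to 28.3 at passage 5, all below background. The last spot read 209 at passage 20 and 28.9 at passage 5, carried the scanner software's outlier flag and was left out.

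The probes of a gene did not always measure the same thing. As examples, 3 of the genes whose probes disagreed, in being above background or in passing 2-fold, are shown. Given are the first 30 bases of each 60-base probe, in the sense of the transcript. Positions are mm9 as in the files, and lower case marks that no part is singled out.
Mmp14, chr14:55059969-55060028, plus strand: aaaggaatcttaagagtgtacatttggagg
Mmp14, chr14:55058775-55058834, plus strand: ggacagcgagtaccctaaaaacatcaaagt
Adamts7, chr9:90094702-90094761, plus strand: gacggtaaaccgaggaaggcaccattagaa
Adamts7, chr9:90094876-90094935, plus strand: ttttttattctaacagtttgcacatttgtt
Adamtsl5, chr10:79805571-79805630, minus strand: caccagcgcttgagaaacacagtggagagg
Adamtsl5, chr10:79804077-79804136, minus strand: ttgctcatctacaaaagccgcacgcctctg
Adamtsl5, chr10:79803120-79803179, minus strand: ctccaatgactatttactgaataccgactg
Only the first of the Mmp14 probes was above background, on both arrays. The first Adamts7 probe was above background on both arrays and the second at passage 5 only. Of the 3 Adamtsl5 probes the first and second were measured and the third was not. Adam1a, Adamts5, Adamts9, Adamts14, Mmp17, Mmp24 and Mmp28, not shown here, likewise had probes that disagreed in being above background. Among the families 40 genes had several probes, but only 6 had more than 1 above background.

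Of the 6 measured ADAMTS genes 2 passed 2-fold, both lower at passage 20, and of the 2 measured ADAMTS-like genes 0 did; 12 ADAMTS and 3 ADAMTS-like genes were not measured. Adamts7, whose product cuts cartilage oligomeric matrix protein, was at -2.45 at passage 20 and -0.94 at passage 5, a 2.85-fold lower level. Its second probe had only a bound, of -0.45 log2. Adamts9, a versican- and aggrecan-cutting proteoglycanase, was at -2.24 at passage 20 and -0.81 at passage 5, 2.70-fold lower, by 1 of 4 probes, the other 3 being above background on neither array. Adamts5, the main aggrecanase of mouse cartilage, was not well above background at passage 20, at -3.97, and was at -2.27 at passage 5, so that it was at least 1.87-fold lower. These 3 genes had their higher value at passage 5, whereas the proteoglycanase Adamts15 did not: it was at 0.31 at passage 20 and 0.27 at passage 5. Adamts1, which also cuts aggrecan and versican, was at 2.39 at passage 20 and 2.73 at passage 5 (probes at -0.46 and -0.34). Adamts14, a procollagen trimming enzyme, was at -2.76 at passage 20 and -3.06 at passage 5, close to the background limit on both arrays. Adamtsl4, which encodes a fibrillin-binding protein without a protease domain, was not well above background at passage 20, at -3.37, and was at -2.53 at passage 5, at least 1.56-fold lower. Adamtsl5 was at -0.92 at passage 20 and -0.32 at passage 5 by its brightest probe, a difference of -0.60, and at -2.20 at passage 20 and -0.76 at passage 5 by its second, a difference of -1.44. Its probes therefore fall on different sides of 2-fold, with the same direction, and the mean over its probes was at -1.09. The mesothelial markers Upk3b, Igfbp5 and Wt1 and the fibroblast marker Dcn were also lower at passage 20, while Msln differed by 0.48; their part in the lower Mmp13, Adamts7 and Adamts9 values was not tested.

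The measured ADAM sheddases were at similar levels on both arrays, with Adam8 the exception. Adam10, the main sheddase of Notch receptors and E-cadherin, was at -0.46 at passage 20 and -0.48 at passage 5. Adam17, which releases TNF and several EGF receptor ligands, was at 1.67 at passage 20 and 1.55 at passage 5, with probes differing by 0.12 and -0.08. Adam15 was at 3.39 at passage 20 and 3.35 at passage 5, with its other probe at -0.24. Adam9 was at 4.02 at passage 20 and 3.78 at passage 5. The differences of these 4 genes, by the brightest probe, were 0.02, 0.12, 0.04 and 0.23 in the order given. With median centring all 4 lay below 0, so no direction is given for them. Adam8, known from leukocytes and from tumour cells, was at -0.01 at passage 20 and 1.05 at passage 5, a 2.08-fold lower level just past the threshold. The summed signal, before scaling, of the 5 macrophage and leukocyte markers was 7886 at passage 20 and 4168 at passage 5. Of this, Cd14 made 7304 at passage 20 and 3484 at passage 5. Csf1r was above background at passage 5 only (a bound of 1.28-fold lower at passage 20), Cd68 differed by 0.34, and Ptprc and Adgre1 were below background on both arrays. The part of these cells in the Adam8 value was not tested.

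Of the other ADAM genes, many of which are known from testis and epididymis, 2 of 19 were measured, both at passage 20 only. Adam4 was at -2.12 at passage 20 and not well above background at passage 5, at -3.23. Its excess of 2.15-fold is taken over that dim value itself, so it is not a strict lower bound. Adam1a, which encodes a fertilin subunit of sperm, was at -3.04 at passage 20 and not well above background at passage 5, a bound of 1.21-fold. Both values are close to the lowest level above background, which was -3.17 at passage 20 and -3.32 at passage 5. Adam9 shares a stretch of chromosome 8, between 25712756 and 26060343 in mm9, with Adam18, Adam3, Adam5 and Adam32, and it was the 1 gene of these 5 that was measured. The 4 genes Adam24, Adam25, Adam20 and Adam39, farther along that chromosome between 41767082 and 41910678, were on neither array above background. Adam11, Adam22 and Adam23, which lack a working active site and are known from the nervous system, were not well above background either, and nor were the sheddases Adam12, Adam19, Adam28 and Adam33.

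**Figure D3:**
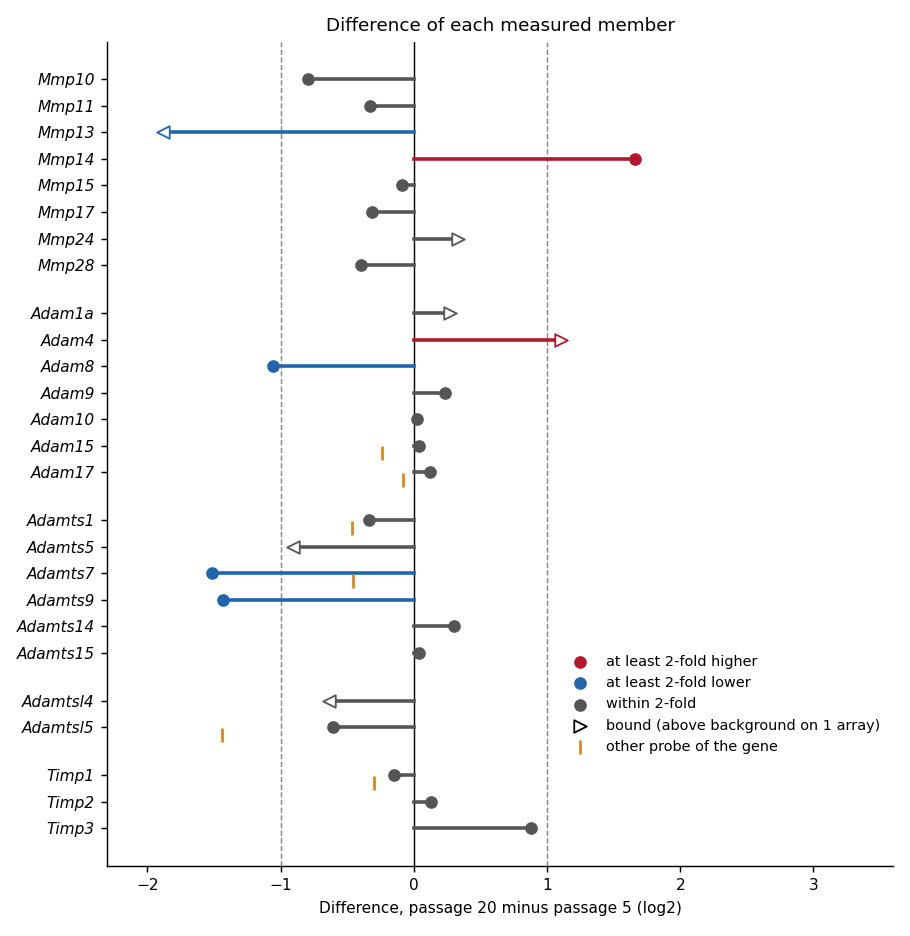
Difference of the 26 measured genes, passage 20 minus passage 5, in log2; dashed lines mark 2-fold, triangles mark bounds of genes above background on 1 array, and orange ticks mark the other measured probes of a gene (the tick of Adamts7 is itself a bound). Mmp14 (1.66) stands on the higher side and Mmp13, Adamts7 and Adamts9 on the lower one, while Adam10, Adam15, Adam17 and Timp2 lie near 0.

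The inhibitors were measured on both arrays, apart from Timp4, which was above background on neither. Timp3, which binds to the matrix and also inhibits ADAM17 and aggrecanases, was at 5.67 at passage 20 and 4.79 at passage 5, a 1.84-fold excess (0.88 log2) that did not reach 2-fold. Timp2, the partner of MT1-MMP, was at 7.57 at passage 20 and 7.45 at passage 5, and Timp1, whose product inhibits most secreted MMPs, at 4.09 at passage 20 and 4.24 at passage 5. The differences were thus 0.13 for Timp2 and -0.15 for Timp1, with the second Timp1 probe at -0.30. Timp2 and Mmp14, whose products act together, differed between the arrays by unlike amounts, 0.13 against 1.66 log2. Timp3 had a difference of the same sign in all 11 other settings, from 0.57 to 0.88 log2.

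The lower calls did not hold under every setting. With normexp, which starts from the mean and local background intensity and adds an offset of 50 to every signal, Adam8, Adamts7, Adamts9 and the bound of Mmp13 all lay within 2-fold, at -0.93, -0.78, -0.79 and -0.94 log2, and Adam4 at 0.84; Mmp14 was at 1.31. Adamts9 was also within 2-fold, at -0.25, with the mean over its 4 probes, and Adam4 was under 2-fold with quantile, loess, median or spike-in scaling and in the authors' values.

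**Figure D4:**
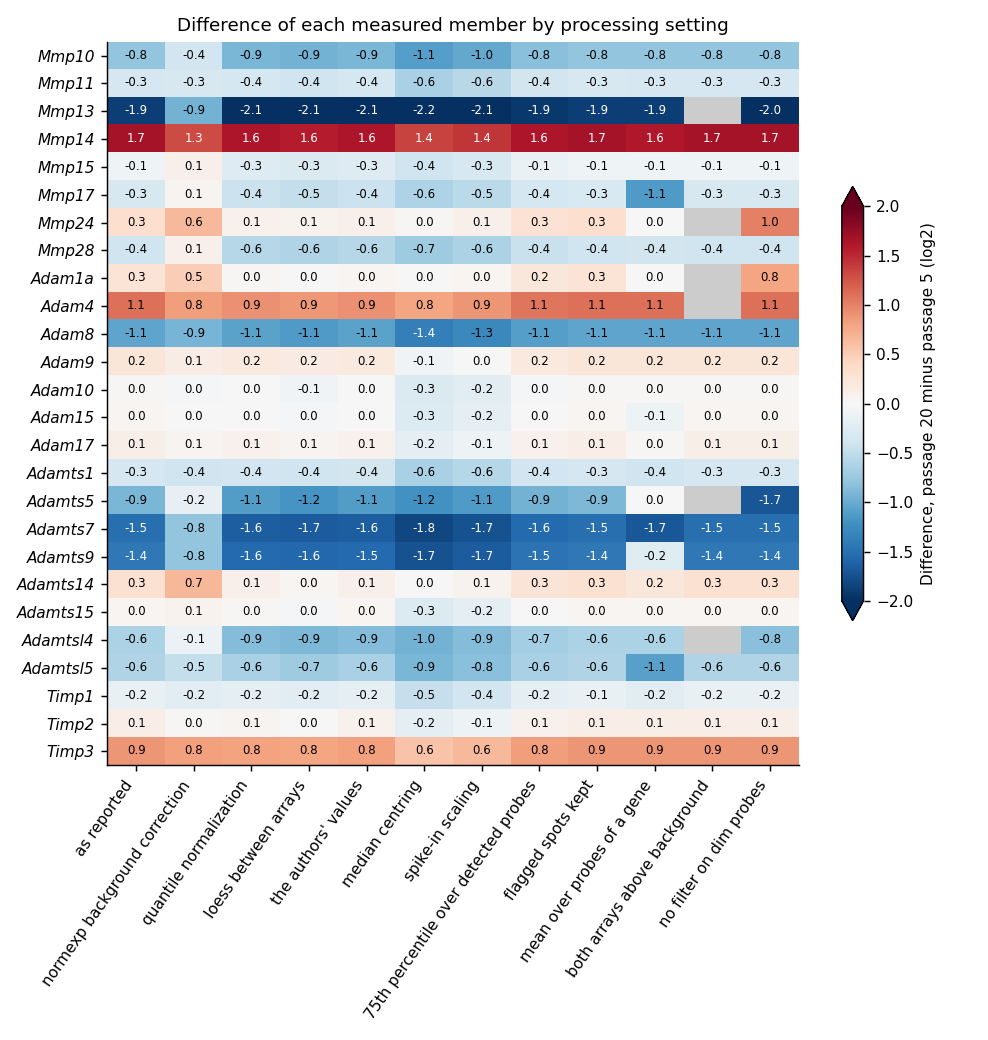
Difference of the 26 measured genes (rows, passage 20 minus passage 5, log2) as reported and under 11 other processing settings (columns); colours run from blue (lower at passage 20) to red (higher), and grey cells have no value because both arrays had to be above background. Mmp14 is at least 1.31 in every column, whereas the normexp column is paler for Mmp13, Adamts7 and Adamts9.

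Genes that act with these families were described through 7 lists, 73 genes in all, of which 46 were measured. Past 2-fold lay 1 of the 46 as higher at passage 20 and 5 as lower (13.0%, beside 9.00% of all measured genes), with a median of -0.10 log2. In the plasminogen system, whose protease plasmin activates several pro-MMPs, the activator gene Plau (urokinase) was at -2.72 at passage 20 and -1.49 at passage 5, 2.35-fold lower, but its other probe was higher by 0.83 log2. Its probes thus differed in opposite directions, and Plau was the 1 gene past 2-fold among 4 measured of the 8 genes of this list.

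Ligands that ADAM10 and ADAM17 release had the highest list median, 0.47 log2 over 7 measured of 10 genes. Hbegf (heparin-binding EGF-like growth factor) was at 3.38 at passage 20 and 2.11 at passage 5, 2.40-fold higher (0.95 log2, within 2-fold, with median centring), and Areg (amphiregulin) was at 3.49 at passage 20 and 2.65 at passage 5, 1.79-fold higher. None of the 10 measured partners of ADAM10 and ADAM17 was 2-fold different (11 genes in the list), and among them Notch1, a receptor cut by ADAM10, was at 0.83 at passage 20 and -0.06 at passage 5. Hbegf was the 1 ligand gene of the 7 past 2-fold, and the list also held measured genes with lower values at passage 20: Cx3cl1 differed by -0.22, and Ereg had a bound of -0.53.

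The measured genes of the procollagen C-proteinase and its enhancers had lower values at passage 20. Pcolce and Pcolce2 encode enhancers of the procollagen C-proteinase. Pcolce was at 2.45 at passage 20 and 3.78 at passage 5, 2.53-fold lower, and Pcolce2 at -1.09 at passage 20 and 0.05 at passage 5, 2.20-fold lower. Bmp1, the C-proteinase itself, was at 1.93 at passage 20 and 2.74 at passage 5, a difference of -0.82, with its other probe at 0.20. The list of other metalloproteinases and enhancers that holds these genes had 5 measured of 9 and a median of -0.82.

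Among the remaining lists 2 genes passed 2-fold by the brightest probe, both lower. Pcsk5, a proprotein convertase, was above background at passage 5 only, at least 3.87-fold lower, and was the 1 called gene among 9 measured of the 15 other inhibitors, activators and receptors. Prss23, a secreted serine protease, was at -0.75 at passage 20 and 0.43 at passage 5, 2.27-fold lower, and was the 1 called gene among 9 measured of 14 other matrix proteases. In the list with Prss23, Htra3 and Ctsl (cathepsin L) differed by -0.73 and -0.60, and Dpp4 had a bound of -0.92, with another of its probes at 1.00. Ctsb (cathepsin B) differed by -0.12 by its brightest probe, but another of its probes was at -1.83. Of 6 proteoglycans and other matrix proteins listed as ADAMTS substrates or their partners, 2 were measured, Vcan and Fn1, and 0 passed 2-fold by the brightest probe, but another Fn1 probe was at 1.86. With a mean over each gene's probes 2 of the 73 genes were lower in place of 5, since Plau (-0.20), Prss23 (-0.50) and Pcsk5 (no measurable difference) lost their call. The means of Prss23 and Pcsk5 take in probes above background on neither array. With normexp Pcolce alone kept it, and Plau was at -0.52, Pcsk5 at -0.79, Pcolce2 at -0.92 and Prss23 at -0.93.

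**Figure D5:**
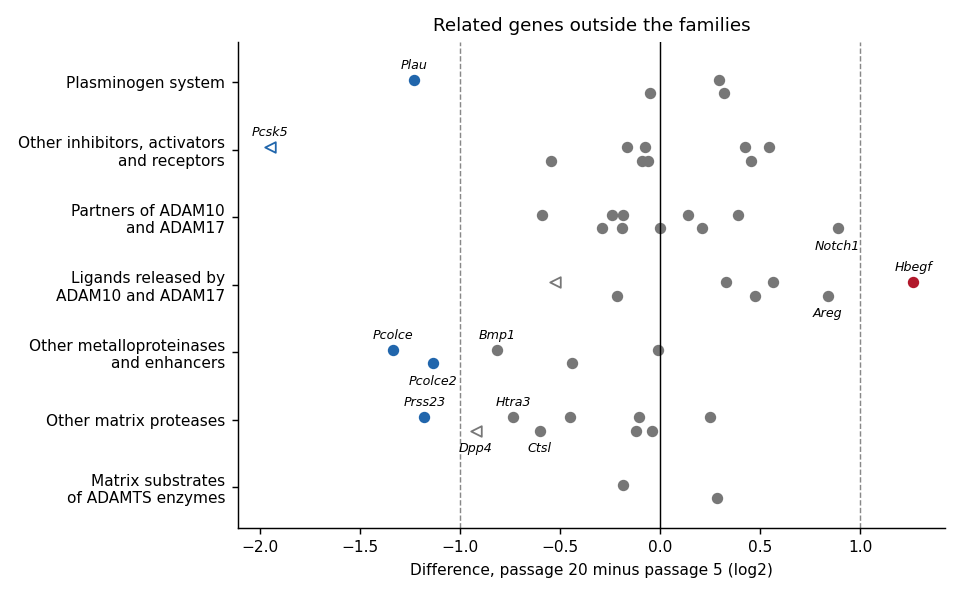
Difference of the 46 measured related genes in 7 lists (rows), passage 20 minus passage 5, in log2; red points are past 2-fold as higher, blue points past it as lower, grey points within it, and triangles are bounds. Hbegf (2.40-fold higher) stands on the right, and Plau, Pcsk5, Pcolce, Pcolce2 and Prss23 on the left.

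The genes of the families measured on neither array, beyond those named above, were Adam2, Adam7, Adam1b, Adam21, Adam26a, Adam29, Adam30, Adam6a and Adam6b among the ADAMs. Among the ADAMTS genes they were the procollagen trimming enzymes Adamts2 and Adamts3, the von Willebrand factor protease Adamts13, the proteoglycanases Adamts4, Adamts8 and Adamts20, and Adamts6, Adamts10, Adamts12, Adamts16, Adamts18 and Adamts19. Adamtsl1, Adamtsl2 and Adamtsl3 complete the list, and 1 of the 3 probes named Adamtsl1 is placed on chromosome 19 in the files, the other 2 on chromosome 4.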

How the data were processed

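Per the labels' protocols, total RNA was amplified and hybridised, in Cy3, to an Agilent mouse array for each passage. The authors' scanner files give a processed spot intensity, for which, per the file headers, Feature Extraction 10.7.3.1 subtracted a detrended background, corrected a multiplicative trend and replaced values within noise by a surrogate. The deposited mean and local background intensity were used for normexp only, and the deposited flags mark outlier, saturated and well-above-background spots. A further table from the authors holds log2 values whose columns contain the same sorted numbers (largest gap 0.000609, median 6.31 in each) and was read as quantile normalized; its tool was not stated in the labels.

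Control spots were dropped, and so were outlier spots (69 at passage 20, 73 at passage 5), on both arrays; 0 gene spots were saturated. The arrays share a slide and a scan, per the file headers. A probe's level is the mean log2 intensity of its spots minus the 75th percentile of all gene probes (853 at passage 20, 1085 at passage 5), and it was above background where over 50% of its spots were. A gene took its probe with the highest mean level. The members' 79 names are all current RefSeq symbols. With RefSeq genes of GRCm38.p6 all gene probes, those of the members included, were matched by accession (27651), symbol (5592) or older symbol (470). The 7445 unnamed probes were left out, and members kept the array's own gene names. Promoter sequences are RefSeq's. With 1 array per passage nothing was tested, and the number of arrays limits the precision.

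All measured members are named, and of the related genes those past 2-fold and the 6 largest within it. Members, lists and alternatives were chosen with earlier results of these data known. One listed related gene is not reported here. The alternatives were normexp (limma 3.58.1, R 4.3.3, offset 50), quantile, loess, median and spike-in scaling, a percentile over detected probes, both arrays above background, no filter, a mean over probes, the authors' values, outlier spots kept, and thresholds of 1.5-fold and 4-fold. The steps were tested on simulated data.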

Additional observations from a re-analysis of the deposited data

How the results depend on the processing

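Of the 26 measured members 16 stayed on their side of 2-fold in each of the 11 settings that gave a value, as did 4 of the 12 named related genes, and 0 of these 38 genes turned from one side of 2-fold into the opposite direction. Counts at 2-fold (2 members higher and 4 lower, 1 related gene higher and 5 lower, 385 of all genes higher and 677 lower) moved with the setting. With normexp 1 member was higher and 0 lower, 1 related gene was lower, and 252 of all genes were higher and 398 lower. Quantile, loess and spike-in scaling, the authors' values and the requirement of both arrays above background each left 1 member higher. With median centring 1 member and 0 related genes were higher and 8 related genes lower, and of all genes 193 were higher and 1127 lower; the medians were -0.43 for members, -0.41 for related genes and -0.24 for all genes. With spike-in scaling 224 of all genes were higher, and the medians were -0.35, -0.33 and -0.16 in the same order. Both of these scalings shift every gene alike, so the gap between members and all genes is the same in each by construction. Without a filter the members' median and that of all genes were both 0.15. That setting lets in genes near the surrogate value, where the scaled difference of member probes had a median of 0.16. No conclusion about the gap is therefore drawn from it. With normexp the medians were 0.0044 for members and 0.045 for all genes. With both arrays above background 428 of all genes were lower. Without a filter on dim probes 9 members, 5 related genes and 1286 of all genes were higher and 1286 of all genes lower, with medians of 0.15 for members and 0.15 for related genes; this setting lets in the 53 members above background on neither array. With the mean over probes 2 related genes were lower. At 1.5-fold 8 members were lower, 3 related genes higher and 10 lower, and 1230 of all genes higher and 1388 lower. At 4-fold 0 members were higher and 0 lower, 0 related genes were higher and 0 lower, and 59 of all genes were higher and 161 lower. Adamts5 passed 2-fold, as lower, with quantile (-1.12), loess (-1.18), median (-1.22) and spike-in scaling (-1.14), and Mmp10 with median (-1.10) and spike-in scaling (-1.02). With normexp, in contrast, Adamts5 was at -0.16 and Mmp10 at -0.38. With the mean over its probes Adamts5 had no measurable difference. Apart from these constructions the causes were not tested. No paired analysis was possible because each passage has 1 array. Signal over background limits the dim genes: below the lowest level above background (-3.17 at passage 20, -3.32 at passage 5) only a bound can be had.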
